A study of Mus musculus with 18 samples.

Results

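The genes of respiratory complexes II, III, IV and V and of cytochrome c were followed in the livers of 18 male C57BL/6J mice by RNA-Seq. The members were all rows of the gene count table whose symbol names a subunit of 1 of these complexes (Sdha to Sdhd, the Uqcr genes and Cyc1, Cycs, the Cox4 to Cox8 families, the Atp5 genes, mt-Cytb, mt-Co1 to mt-Co3, mt-Atp6 and mt-Atp8). This rule used no measured value and took 57 of the 55487 rows: 4 of complex II, 10 of complex III, 1 of cytochrome c, 21 of complex IV, 20 of complex V and 1 pseudogene, Cox6c2. Of these, 51 lie in the nuclear genome and 6 in the mitochondrial genome. Each mouse received an AAV8 vector with the hepatocyte-specific TBG promoter 1 week before its diet began, so that all 3 groups carried a vector. CON-GFP mice expressed GFP and ate a purified control diet for 16 weeks. FPC-GFP mice expressed GFP and ate a diet rich in fructose, palmitate and cholesterol (FPC), with fructose and glucose in the drinking water, for as long. FPC-LIPA mice ate the FPC diet and expressed human LIPA, which encodes lysosomal acid lipase (LAL), the enzyme that hydrolyses cholesteryl esters and triacylglycerol in lysosomes. Each group had 6 mice with 1 liver library each, named here by group and mouse number.

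Complex II (succinate dehydrogenase) passes electrons from succinate to ubiquinone, complex III passes them on to cytochrome c, and complex IV (cytochrome c oxidase) passes them to oxygen. Complexes III and IV pump protons as they do so, and complex V (ATP synthase) uses the proton gradient to make ATP. Complex II is encoded wholly in the nucleus, whereas the other complexes combine nuclear subunits with a few that are transcribed inside the mitochondrion from the multicopy mitochondrial DNA. In hepatocytes, which are rich in mitochondria, the oxidation of fatty acids feeds electrons into them.

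The coding sequences of the members on which the results turn are printed 5′ to 3′ as the GENCODE M21 annotation of GRCm38 gives them. Capitals mark the bases that lie in any 100-base window found exactly in the transcript of another gene, so that reads from them fit both genes. Atp5e (ε subunit of ATP synthase, chr2:174461072-174464105, minus strand) is shown because it had the largest fold change in FPC-LIPA livers:
Atp5e: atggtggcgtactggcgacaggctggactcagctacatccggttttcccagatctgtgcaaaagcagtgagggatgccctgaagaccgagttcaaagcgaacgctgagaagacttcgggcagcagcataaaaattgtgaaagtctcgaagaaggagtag
Atp5md (a small membrane subunit of ATP synthase, named Usmg5 in M21, chr19:47083464-47090647, minus strand) had the next largest, and 174 of its 177 coding bases also occur in the transcript of Gm14539:
Atp5md: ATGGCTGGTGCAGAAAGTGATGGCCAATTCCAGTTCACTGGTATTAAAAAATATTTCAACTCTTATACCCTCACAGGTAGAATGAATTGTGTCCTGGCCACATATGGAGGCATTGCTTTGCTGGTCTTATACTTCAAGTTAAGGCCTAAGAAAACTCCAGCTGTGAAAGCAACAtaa
Cox7a1 (the complex IV subunit 7a of heart and muscle, chr7:30184144-30186078, plus strand) had the third:
Cox7a1: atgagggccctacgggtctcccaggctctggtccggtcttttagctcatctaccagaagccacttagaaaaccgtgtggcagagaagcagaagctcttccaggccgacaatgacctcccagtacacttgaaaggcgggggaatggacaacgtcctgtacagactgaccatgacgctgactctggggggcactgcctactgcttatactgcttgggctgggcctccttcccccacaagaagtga
Cox8a (complex IV subunit 8 of most tissues, chr19:7215153-7217616, minus strand) is as short but did not pass the test in any comparison:
Cox8a: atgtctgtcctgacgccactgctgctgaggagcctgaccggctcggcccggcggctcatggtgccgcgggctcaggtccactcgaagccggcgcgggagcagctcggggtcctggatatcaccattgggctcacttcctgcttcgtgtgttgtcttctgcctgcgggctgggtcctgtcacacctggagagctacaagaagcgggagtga
mt-Co2 (the complex IV core subunit that takes electrons from cytochrome c, positions 7013 to 7696 of the mitochondrial chromosome, plus strand) shows the problem of mitochondrial copies in the nucleus. All of its first 150 bases are also in the transcript of the nuclear gene Gm28661:
mt-Co2: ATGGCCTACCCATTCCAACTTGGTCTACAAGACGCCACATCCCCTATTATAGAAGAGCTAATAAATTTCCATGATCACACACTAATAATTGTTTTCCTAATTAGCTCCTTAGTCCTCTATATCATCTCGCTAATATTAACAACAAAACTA

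Library totals ranged from 16632146 to 37739301 counts, with medians of 28428247 in CON-GFP, 29486296.5 in FPC-GFP and 27805019.5 in FPC-LIPA. The livers had the markers of hepatocytes: Alb, Apoa1, Ttr, Tat, Cps1 and Serpina1c together held between 44900 and 95400 CPM (counts normalised to library size, scaled with TMM factors over the 18 libraries). Human LIPA is not a row of the mouse table, and the mouse Lipa gene had 240 to 406 CPM in FPC-GFP and 254 to 385 CPM in FPC-LIPA, so that the count table does not check the vector. The FPC-LIPA libraries fell into 2 sets. The share of counts on cytosolic ribosomal protein genes was 2.74%, 2.26% and 2.0% in FPC-LIPA 31, 33 and 34, but 6.23%, 7.88% and 7.95% in FPC-LIPA 36, 39 and 37b, against 1.32% to 2.36% in the other groups. FPC-LIPA 37b, CON-GFP 1 and 2 and FPC-GFP 20 also have sample sheet numbers outside the run of 55 to 68 that the other 14 libraries share. Results are therefore also given without FPC-LIPA 36, 39 and 37b, an alternative chosen after seeing the data, and within sample sheet numbers 55 to 68.

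The levels of the 6 mitochondrial members were spread widely. On the scale of CPM per kilobase of the gene's principal transcript, averaged over the 3 group means, mt-Co1, the catalytic core of complex IV, stood at 14100 and mt-Cytb, the ubiquinone-binding subunit of complex III, at 9610. The highest nuclear members were Uqcrq of complex III at 2090, Atp5e at 1400, Atp5md at 1090 and Cox4i1 of complex IV at 1070. Sdhc, a membrane anchor of complex II, was low at 50.4, as was Cycs at 47.1. The other 4 mitochondrial members were far below mt-Co1: mt-Co3 stood at 301, mt-Atp6 at 219, mt-Co2 at 214 and mt-Atp8 at 3.85. Together mt-Co1 and mt-Cytb made up 98.5% of the counts on the 6 mitochondrial members. In the windows of 100 bases, mt-Co3 shared 99.9% with the nuclear gene Gm28437, mt-Co2 shared 99.5% with Gm28661 and mt-Atp6 shared 99.5% with Gm10925, while mt-Co1 shared 30.8% and mt-Cytb and mt-Atp8 shared none. How reads that fit more than 1 gene were counted is not stated in the sources used here, so the levels of mt-Co2, mt-Co3 and mt-Atp6 are uncertain. mt-Atp8 shares positions 7927 to 7969 with mt-Atp6, and its 18 libraries held only 4 to 72 counts each.

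Of the 57 members, 7 carried little or no signal. Cox7b2 and Cox8c, known from testis, and a readthrough row that also bears the symbol Atp5o were at 0 counts in every library, where the floor of 3 counts is the limit of detection. Cox4i2 had at most 9 counts and Cox6a2 at most 6 counts in any library, and neither passed the filter on low counts in any comparison. Cox6b2 (2 to 27 counts) passed it only for FPC-LIPA against FPC-GFP, and Cox8b (0 to 52 counts) only for FPC-LIPA against CON-GFP. The other 50 members passed in each comparison, so 50, 51 and 51 members were tested.

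The FPC diet was compared with the control diet in livers that expressed GFP. Transcripts of the respiratory complexes were lower on the FPC diet: 27 of the 50 tested members fell and 0 rose in FPC-GFP against CON-GFP (edgeR's quasi-likelihood test, adjusted p under 0.05 over all 14307 genes tested). At an unadjusted p under 0.05, 33 members were lower and 0 higher, and DESeq2 called 31 lower and 0 higher. Of all genes tested, 10.9% fell and 12.9% rose. The median log2 fold change was -0.36 over the 44 nuclear members and -1.43 over the 6 mitochondrial members, beside 0.01 over all genes. For mt-Cytb and mt-Co1, which held 98.5% of the counts on the mitochondrial members, the median was -0.92. Because these are whole livers, fewer cells of a type and less RNA per cell cannot be told apart. Summed leukocyte markers went from 39.2 to 93.1 CPM in CON-GFP to 102 to 298 CPM in FPC-GFP with no overlap. Most of this sum was Lyz2, with means of 49.7 and 136 CPM. Lyz2 and Cd68 were the 2 of 7 leukocyte markers that passed, and Cd3e and S100a8 had log2 fold changes of -0.45 and -0.28. Kupffer cell markers went from 97 to 206 CPM to 286 to 468 CPM with no overlap (4 of 4 higher), endothelial markers from 77.5 to 108 CPM to 96.7 to 124 CPM (2 of 4 higher) and hepatocyte markers from 62700 to 95400 CPM to 56700 to 81000 CPM (2 of 6 lower), both with overlap. The part of these cell types in the result was not tested.

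Among the nuclear members, 22 of 44 fell on the FPC diet, none of them by 2-fold. In complex II, 2 of 4 fell. Sdhb, the iron-sulfur subunit, ranged from 257 to 348 CPM (median 319) in CON-GFP and from 175 to 244 CPM (median 207) in FPC-GFP. The groups did not overlap, and the log2 fold change was -0.62 ± 0.11 (SE, adjusted p = 0.00196). Sdhd, a membrane anchor, fell by 0.37 on the log2 scale, while the catalytic subunit Sdha, at 0.13 (adjusted p = 0.371), and the other anchor Sdhc, at -0.21 (adjusted p = 0.0995), did not pass the test. In complex III, 0 of the 4 nuclear core subunits and 3 of the 5 small subunits fell. The core subunits Cyc1, Uqcrc1, Uqcrc2 and Uqcrfs1 had log2 fold changes between -0.11 and 0.06. Of the small subunits, Uqcrh, the hinge protein near cytochrome c, ranged from 250 to 415 CPM (median 286) in CON-GFP and from 163 to 205 CPM (median 192) in FPC-GFP, again with no overlap. Uqcrh fell by 0.71 ± 0.14 on the log2 scale (adjusted p = 0.00256), Uqcrb by 0.57 and Uqcrq by 0.55.

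In complex IV, 5 of the 12 tested nuclear members fell: Cox6c, Cox7a2, Cox7a2l, Cox7b and Cox7c. Cox7b, a small structural subunit, fell from 254 to 468 CPM (median 303) to 155 to 238 CPM (median 200), without overlap (log2 fold change -0.81 ± 0.16, adjusted p = 0.00344). Cox4i1, the regulatory subunit that binds ATP, had a log2 fold change of -0.3 (adjusted p = 0.0837), and Cox8a, at 0.02, and Cox6a1, at -0.02, were nearly level. In complex V, 11 of 17 nuclear members fell. All 5 small membrane subunits (Atp5j2, Atp5k, Atp5l, Atp5md and Atp5mpl) and all 4 subunits of the peripheral stalk that holds the catalytic head still (Atp5h, Atp5j, Atp5o and Atp5pb) fell, with medians of -0.63 and -0.39. Atp5md went from 131 to 302 CPM (median 179) to 101 to 123 CPM (median 108) with no overlap and had the largest change of the nuclear members, -0.85 ± 0.18 (adjusted p = 0.00439). In the catalytic head, only Atp5c1, the rotating γ subunit, fell (-0.34), and the catalytic and paired subunits Atp5b and Atp5a1 had log2 fold changes of 0.09 and -0.1. Cytochrome c, encoded by Cycs, had -0.19 (adjusted p = 0.197), and the pseudogene Cox6c2 had -0.79 (adjusted p = 0.0404). The Cox6c2 call was lost in 7 of the 12 fits that left out 1 library (CON-GFP 1, 3, 6 or 8 or FPC-GFP 12, 16 or 19), with no filter (adjusted p = 0.0559), with library size alone (0.1) and with the length trend removed (-0.4, adjusted p = 0.227).

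Of the mitochondrial members, 5 of 6 fell on the FPC diet. mt-Co1 ranged from 19400 to 57500 CPM (median 28400) in CON-GFP and from 13300 to 18800 CPM (median 17600) in FPC-GFP. mt-Cytb ranged from 11500 to 25700 CPM (median 14800) and from 7140 to 10000 CPM (median 9000). In both genes every FPC-GFP liver was below every CON-GFP liver. The log2 fold changes were close, -0.93 ± 0.23 for mt-Co1 (adjusted p = 0.0112) and -0.91 ± 0.19 for mt-Cytb (adjusted p = 0.00453). These 2 genes and 12 nuclear members made up the 14 of 50 tested members whose groups did not overlap with FPC-GFP lower, against 4.41% of all genes. CON-GFP 2 was highest in both genes, and without it both still passed the test. Within sample sheet numbers 55 to 68, mt-Cytb still passed, but mt-Co1, at -0.64, did not (adjusted p = 0.057). The share of all counts on the 6 mitochondrial members was 3.21% to 7.39% in CON-GFP and 2.16% to 3.12% in FPC-GFP. The share on the nuclear members was 1.18% to 1.37% and 1.01% to 1.26% in the same groups, with overlap.

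mt-Atp6, mt-Co3 and mt-Co2, which share nearly all of their windows with nuclear copies, had larger changes and wider spreads than mt-Cytb and mt-Co1, of which mt-Co1 shares 30.8%. mt-Atp6, which forms the proton channel of ATP synthase, ranged from 42.6 to 832 CPM (median 233) in CON-GFP and from 14.5 to 138 CPM (median 30.5) in FPC-GFP, and the groups overlapped. mt-Co3, a core subunit of complex IV, ranged from 47.1 to 1040 CPM (median 254) and from 43.5 to 162 CPM (median 94). mt-Co2 ranged from 74.1 to 835 CPM (median 252) and from 21.6 to 120 CPM (median 85.6). Within CON-GFP these genes were spread far more widely than mt-Cytb. Their log2 fold changes were -2.36 ± 0.68, -2.09 ± 0.63 and -1.94 ± 0.5 (adjusted p = 0.021, 0.0269 and 0.0126), and they were the only members that fell by at least 2-fold, against 2.44% of all genes. Without CON-GFP 1, mt-Atp6 had -1.71 and mt-Co3 -1.56 and neither passed, while mt-Co2 did. mt-Co3 also missed the threshold without CON-GFP 2 (-1.79), FPC-GFP 11 (-1.94) or FPC-GFP 19 (-2.0). Within sample sheet numbers 55 to 68, mt-Atp6 had -1.45 (adjusted p = 0.147) and mt-Co3 -0.62 (adjusted p = 0.44), and only mt-Co2 of these genes passed. mt-Atp8, of which 0.182 to 2.16 CPM were measured in FPC-GFP and 0.476 to 3.22 CPM in CON-GFP, had -0.45 ± 0.6 (adjusted p = 0.603).

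The number of diet calls depended on the processing more than the direction did. With all 18 libraries in 1 fit, whose common spread includes that of FPC-LIPA, 3 members fell (mt-Co1, mt-Co2 and mt-Cytb), and with sample sheet numbers 55 to 68 alone 13 fell. With library size alone as the scale 17 fell, and with trends on gene length and GC content removed 16 fell and 1 rose.

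**Figure D1:**
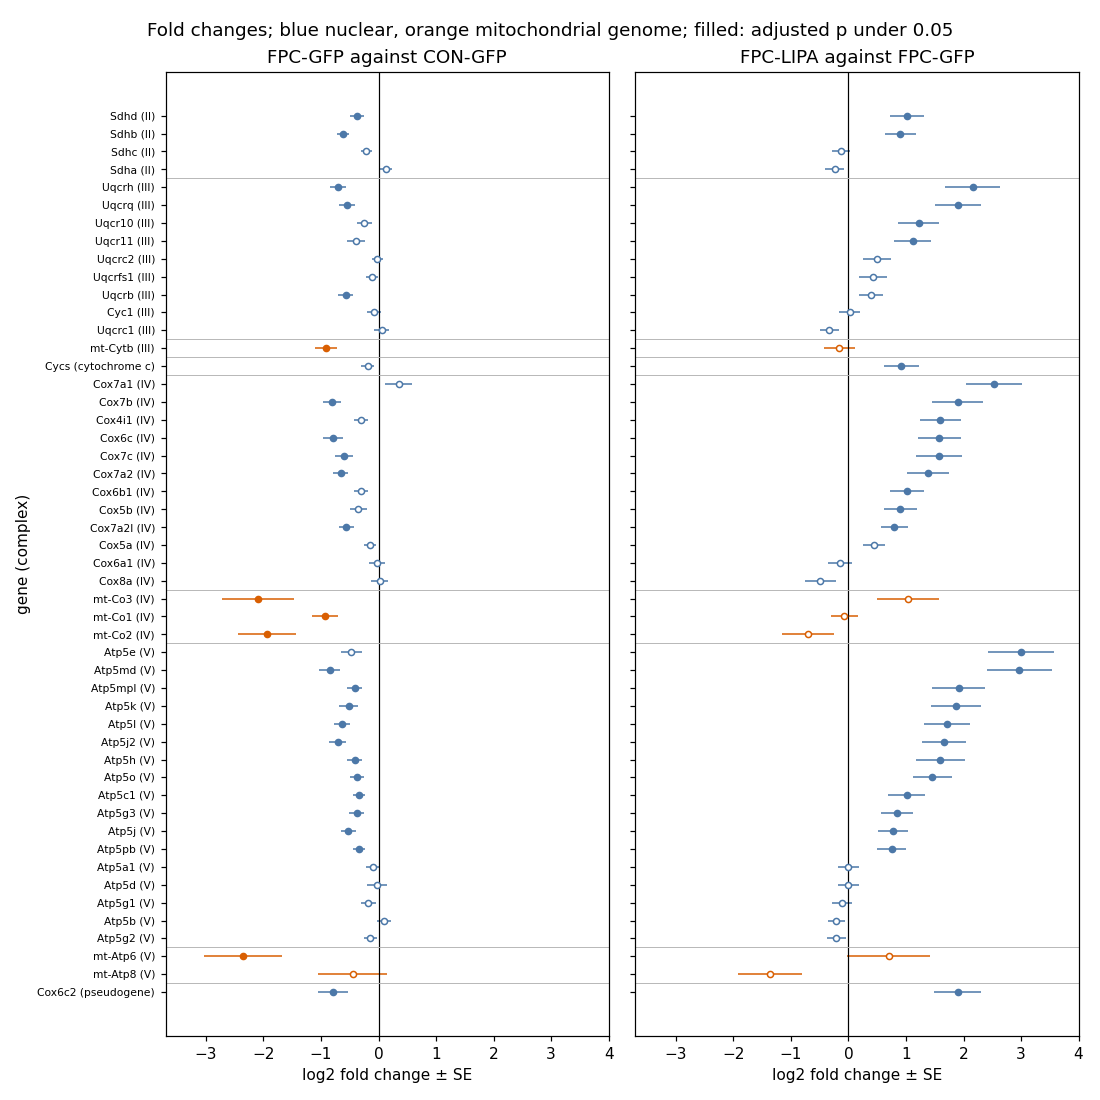
Log2 fold changes (points) with their standard errors (bars) for the 50 members tested in both comparisons, ordered by complex and genome, for FPC-GFP against CON-GFP and for FPC-LIPA against FPC-GFP. In the diet comparison 45 of 50 points lie below 0, with mt-Atp6, mt-Co3 and mt-Co2 farthest, and in the LIPA comparison Atp5e, Atp5md and Cox7a1 lie farthest above 0.

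LIPA was compared with GFP in livers on the FPC diet. Here the nuclear members were higher: 29 of the 51 tested members rose and 0 fell in FPC-LIPA against FPC-GFP, and all 29 were nuclear. At an unadjusted p under 0.05, 30 were higher and 1 lower, and DESeq2 called 29 higher and 0 lower. Of all 14620 genes tested, 14.4% rose and 6.87% fell. A total of 22 members rose by at least 2-fold, against 10.3% of all genes, and 13 did not overlap between the groups, against 3.81%. The median log2 fold change was 0.92 over the 45 nuclear members and -0.11 over the 6 mitochondrial members, beside 0.04 over all genes. This comparison shares the FPC-GFP libraries with the diet comparison, so a low level in those 6 livers enters both with opposite sign.

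Most of this difference lay in 3 of the 6 livers. Nuclear members held 1.42%, 1.32% and 1.31% of all counts in FPC-LIPA 31, 33 and 34, and 2.4%, 2.75% and 2.5% in FPC-LIPA 36, 39 and 37b, against 1.01% to 1.26% in FPC-GFP. In each of FPC-LIPA 36, 39 and 37b, 34 or 35 of 45 nuclear members were above the highest FPC-GFP liver. In FPC-LIPA 31, 33 and 34 this held for 21, 16 and 24 members, and in the CON-GFP livers for 15 to 40. Above the highest CON-GFP liver were 4, 2 and 3 members in FPC-LIPA 31, 33 and 34, and 33, 34 and 34 in FPC-LIPA 36, 39 and 37b. When FPC-LIPA 36, 39 and 37b were left out, 3 members rose (Atp5e, Atp5md and Cox7a1), none by 2-fold, 13 were higher and 1 lower at an unadjusted p under 0.05, and the nuclear median was 0.15. The same 3 livers had the high ribosomal protein shares given above. Summed red blood cell markers (the globin genes) were 1750, 2610 and 1900 CPM in FPC-LIPA 36, 39 and 37b, and 658, 851 and 419 CPM in FPC-LIPA 31, 33 and 34, against 165 to 363 CPM in FPC-GFP. Of these, Hbb-bs (means of 1060 CPM in FPC-LIPA and 105 CPM in FPC-GFP) and Hbb-bt were higher (2 of 4). Hba-a1 and Hba-a2 did not pass (log2 fold changes of 0.67 and 0.75, adjusted p = 0.0832 and 0.0731). Leukocyte markers were 396 to 789 CPM in FPC-LIPA against 102 to 298 CPM in FPC-GFP (3 of 7 higher, with Lyz2 at means of 500 and 136 CPM), and Kupffer cell markers were 381 to 686 CPM against 286 to 468 CPM (2 of 4 higher). Stellate cell markers were 210 to 651 CPM, highest in FPC-LIPA 37b, against 160 to 219 CPM (2 of 4 higher). Hepatocyte markers were 44900 to 70400 CPM against 56700 to 81000 CPM (1 of 6 lower). No cholangiocyte marker passed in any comparison, and the pancreas markers together reached at most 0.451 CPM in any liver. The part of these cell types and of the ribosomal protein share in the result was not tested.

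**Figure D2:**
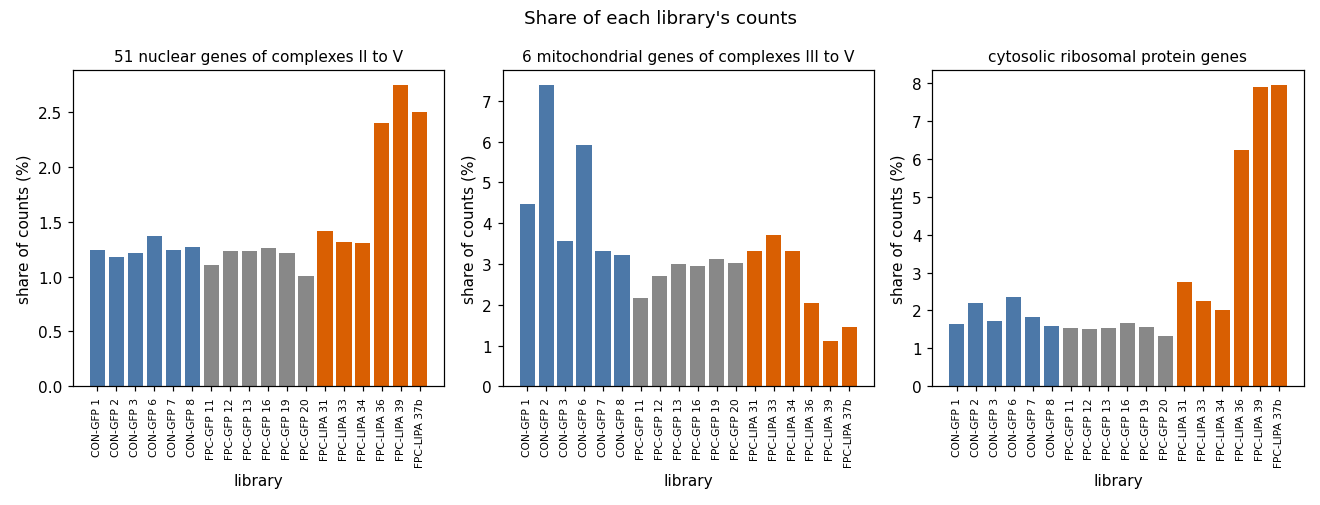
Share of each library's counts (%) on the nuclear members, on the mitochondrial members and on cytosolic ribosomal protein genes, with 1 bar per liver, coloured by group. FPC-LIPA 36, 39 and 37b stand apart from FPC-LIPA 31, 33 and 34, with nuclear shares of 2.4% to 2.75%, mitochondrial shares of 1.12% to 2.04% and ribosomal protein shares of 6.23% to 7.95%.

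Each removal of a single FPC-GFP library left 16 to 18 calls, and removal of FPC-LIPA 36, 39 or 37b left 15, 15 and 17. Within sample sheet numbers 55 to 68, edgeR called 0 of 51 members, although 27 were higher and 1 lower at an unadjusted p under 0.05 (DESeq2 was not run on these libraries alone). With the trend on gene length removed, 10 rose and 1 fell, and with trends on length and GC content removed, 10 rose and 3 fell.

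In complex II, Sdhb and Sdhd rose. Sdhb was 238, 215 and 240 CPM in FPC-LIPA 31, 33 and 34 and 544, 450 and 625 CPM in FPC-LIPA 36, 39 and 37b, against 175 to 244 CPM in FPC-GFP. Only the latter 3 livers were above FPC-GFP, and the log2 fold change was 0.9 ± 0.27 (adjusted p = 0.0333). The call was lost in 9 of the 12 fits that left out 1 library (adjusted p = 0.0512 to 0.0835), namely without any 1 of the FPC-GFP libraries and without FPC-LIPA 36, 39 or 37b, and with library size alone (adjusted p = 0.0527). Sdhd had 1.02 ± 0.3 (adjusted p = 0.0302), while Sdha (-0.24) and Sdhc (-0.13) did not pass the test.

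In complex III, 4 of the 5 small subunits rose and 0 of the 4 nuclear core subunits did. Uqcrq, which sits next to cytochrome b, was 662, 665 and 552 CPM in FPC-LIPA 31, 33 and 34 and 2230, 2960 and 2140 CPM in FPC-LIPA 36, 39 and 37b. All 6 values were above the FPC-GFP range of 291 to 526 CPM (median 409), a 3.76-fold rise (log2 1.91 ± 0.4, adjusted p = 0.0137). Uqcrh rose 4.46-fold, from 163 to 205 CPM (median 192) to 243 to 1670 CPM (median 654), also without overlap. Uqcr10 and Uqcr11 rose 2.32-fold and 2.17-fold with overlap, and Uqcrb, at 1.31-fold, did not pass (adjusted p = 0.174). Among the core subunits, Uqcrc2 had 0.5 and the Rieske protein Uqcrfs1 had 0.43 on the log2 scale, and Uqcrc1 had -0.33. Cyc1, the heme subunit that the study used as a reference gene for qPCR, was 224 to 272 CPM (median 257) in FPC-GFP and 203 to 379 CPM (median 231) in FPC-LIPA, with 197 to 310 CPM (median 270) in CON-GFP. Its log2 fold changes were 0.02 ± 0.18 for LIPA and -0.08 ± 0.12 for the diet (adjusted p = 0.943 and 0.643). Cycs, the mobile carrier between complexes III and IV, rose 1.89-fold, from 90.8 to 117 CPM (median 113) to 87.3 to 371 CPM (median 191), with overlap (adjusted p = 0.0413). This call was lost in the same 9 fits (adjusted p = 0.0681 to 0.0954), with no filter (0.0548), with library size alone (0.0704) and with the GC trend removed, where the log2 fold change was 0.25.

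In complex IV, 9 of the 13 tested nuclear members rose. Cox7a1 was 5.61, 4.93 and 4.85 CPM in FPC-LIPA 31, 33 and 34 and 17.3, 30.3 and 33.9 CPM in FPC-LIPA 36, 39 and 37b, against 2.28 to 3.34 CPM in FPC-GFP. All 6 livers were above FPC-GFP and above CON-GFP (1.09 to 3.03 CPM). Cox7a1 rose 5.78-fold (log2 2.53 ± 0.48, adjusted p = 0.011), the largest change in complex IV. It is known from heart and skeletal muscle. The 6 muscle markers (Acta1, Ckm, Myh4, Myh6, Tnnt3 and Mb) together reached at most 0.157 CPM in FPC-LIPA, 0.151 CPM in FPC-GFP and 0.204 CPM in CON-GFP. Myh4, Myh6 and Mb were at 0 in FPC-LIPA and FPC-GFP. The 4 adipocyte markers together reached at most 0.858 CPM in FPC-LIPA and 0.187 CPM in FPC-GFP, but 10.6 CPM in CON-GFP 7. Cox4i1 rose 3.04-fold, from 378 to 511 CPM (median 468) to 536 to 2630 CPM (median 1240), with no overlap. Cox7b rose 3.73-fold, the only other nuclear member of complex IV whose groups did not overlap. Cox6c, Cox7c, Cox7a2 and Cox6b1 rose between 2.03-fold and 2.99-fold and Cox5b and Cox7a2l by less than 2-fold. With 1 library left out, the call was lost in 9 of 12 fits for Cox6b1 (the same fits as for Sdhb), in 8 for Cox7a2l (these without that of FPC-LIPA 37b) and in 2 for Cox7a2 (without FPC-LIPA 36 or 39). Cox8a, Cox6a1, Cox5a and Cox6b2 did not pass the test. Cox8a was 177 to 260 CPM (median 249) in FPC-GFP and 58 to 251 CPM (median 168) in FPC-LIPA, with its lowest level in FPC-LIPA 37b (log2 fold change -0.49 ± 0.27, adjusted p = 0.182).

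In complex V, 12 of 17 nuclear members rose, and its parts differed in how many did. All 5 small membrane subunits rose, by 3.16-fold to 7.82-fold, and none overlapped between the groups. All 4 peripheral stalk subunits rose, by 1.69-fold to 3.02-fold (adjusted p = 0.0165 to 0.0473). Of the 5 subunits of the catalytic head, Atp5e and Atp5c1 rose, and Atp5a1, Atp5b and Atp5d did not pass the test. Coding sequences were 177 to 312 bases long in the membrane subunits. In the catalytic head they were 159 (Atp5e), 507 (Atp5d), 897 (Atp5c1), 1590 (Atp5b) and 1662 bases (Atp5a1). Only Atp5e, Atp5md, Atp5j2 and Atp5o among the nuclear complex V members still rose with the trend on gene length removed. Atp5e was 272, 441 and 279 CPM in FPC-LIPA 31, 33 and 34 and 1530, 3090 and 2540 CPM in FPC-LIPA 36, 39 and 37b. Every value exceeded the FPC-GFP range of 112 to 199 CPM (median 179), and Atp5e rose 7.98-fold (log2 3.0 ± 0.57, adjusted p = 0.011). Atp5md was 197, 290 and 155 CPM and 969, 1590 and 2010 CPM in the same order, against 101 to 123 CPM (median 108) in FPC-GFP. It rose 7.82-fold (log2 2.97 ± 0.56, adjusted p = 0.011), also without overlap. Atp5b, whose product forms ATP, stayed between 924 and 1190 CPM (median 1020) in FPC-LIPA, with 1120 to 1300 CPM (median 1220) in FPC-GFP. Its log2 fold change was -0.21 ± 0.15 (adjusted p = 0.319).

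**Figure D3:**
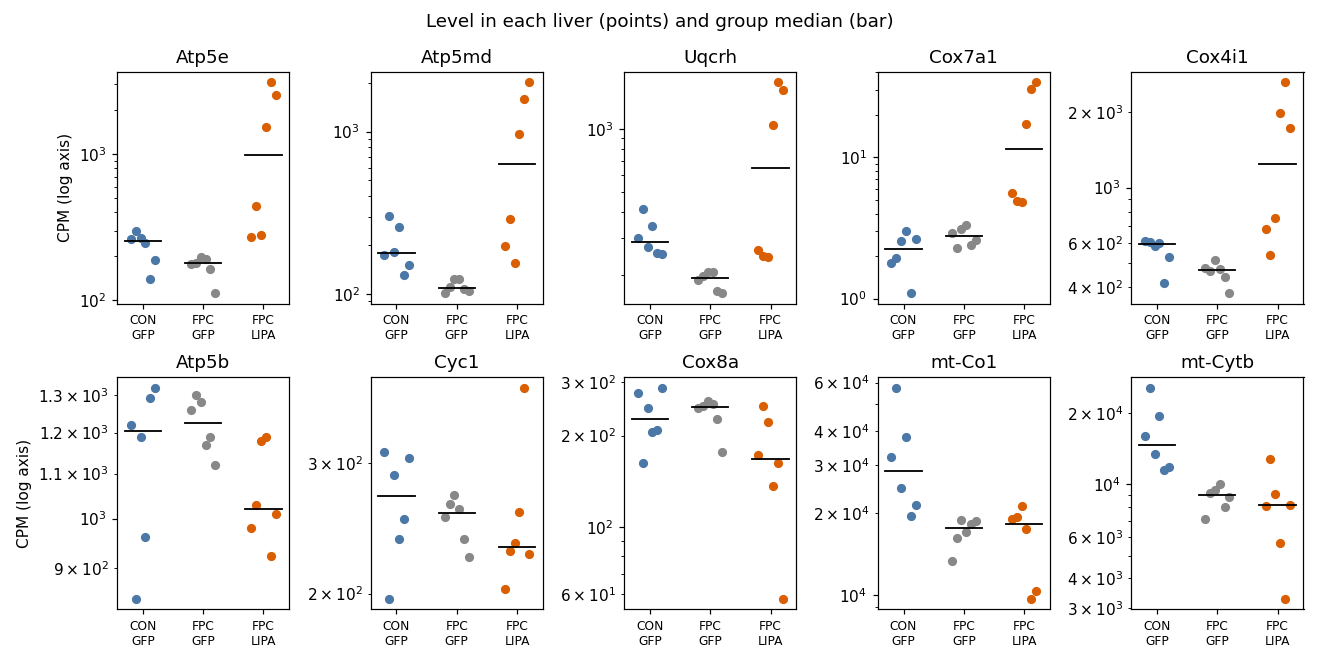
Level (CPM, log axis) of 10 members in each liver, by group, with a bar at the group median. Atp5e, Atp5md, Uqcrh and Cox7a1 were higher in every FPC-LIPA liver than in any FPC-GFP liver, whereas Atp5b, Cyc1 and Cox8a overlapped, and mt-Co1 and mt-Cytb were higher in every CON-GFP liver than in any FPC-GFP liver.

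The mitochondrial members did not pass the test with LIPA: 0 of 6 rose and 0 fell (edgeR), with 0 higher and 1 lower at an unadjusted p under 0.05, and DESeq2 also called 0. Some alternative edgeR fits did call members. With the trend on length, on GC content or on both removed, mt-Atp8 fell (-2.34, -2.07 and -2.91, adjusted p = 0.0403, 0.0404 and 0.0442). Without FPC-LIPA 34, mt-Co2 fell (-1.3, adjusted p = 0.0202), and without FPC-LIPA 33, mt-Co3 rose (1.26, adjusted p = 0.0417). mt-Co1 was 19000, 19300 and 21200 CPM in FPC-LIPA 31, 33 and 34 and 17400, 9700 and 10300 CPM in FPC-LIPA 36, 39 and 37b, against 13300 to 18800 CPM in FPC-GFP. mt-Cytb was 8120, 12800 and 9100 CPM and 5630, 3290 and 8190 CPM in the same order, against 7140 to 10000 CPM. The livers with the highest nuclear members were thus not those with the highest mt-Co1 and mt-Cytb. The log2 fold changes were -0.07 ± 0.23 and -0.16 ± 0.27 (adjusted p = 0.831 and 0.682), and without FPC-LIPA 36, 39 and 37b they were 0.23 and 0.2. The ratio of counts on mitochondrial members to counts on nuclear members was 2.34, 2.82 and 2.53 in FPC-LIPA 31, 33 and 34 and 0.85, 0.407 and 0.583 in FPC-LIPA 36, 39 and 37b. It was 1.94 to 2.99 in FPC-GFP and 2.53 to 6.25 in CON-GFP. As the ratio is a score over the members, it was not tested.

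**Figure D4:**
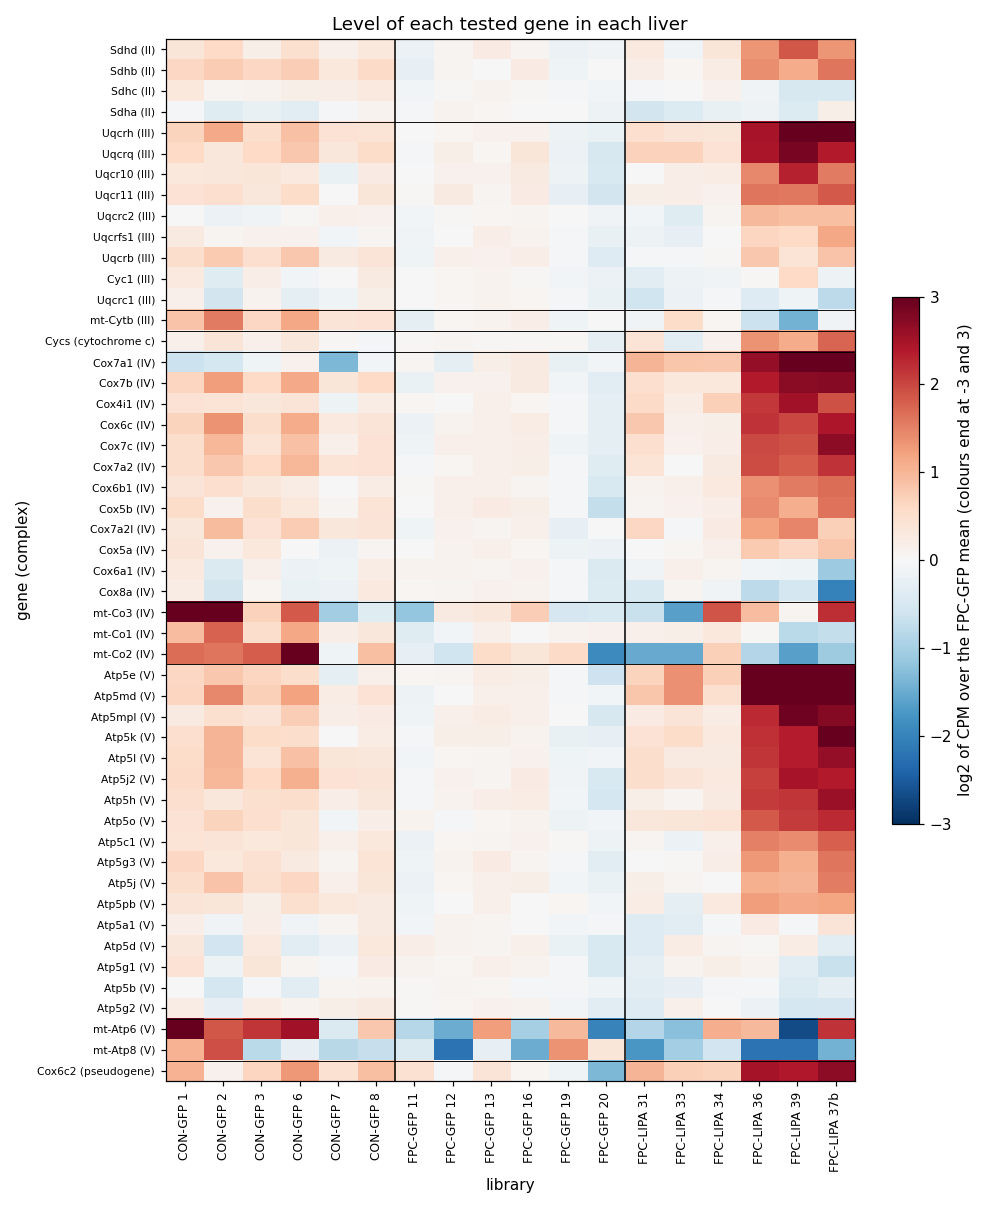
Level of 50 members (rows, ordered by complex and genome of origin) in each of the 18 livers (columns), coloured by log2 of CPM over the gene's FPC-GFP mean. FPC-LIPA 36, 39 and 37b are highest for the small subunits that rose, such as Atp5e and Uqcrh, and mt-Co1 and mt-Cytb are highest in CON-GFP livers.

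FPC-LIPA was also set against CON-GFP, a comparison that changes diet and vector together and shares libraries with both others. In it, 10 members rose, 4 fell and 37 of 51 did not pass the test. At an unadjusted p under 0.05, 19 were higher and 6 lower, and DESeq2 called 14 higher and 5 lower. Of all 14433 genes tested, 14.7% rose and 8.2% fell, so the share of members that fell was near the background and the share that rose was little above it. All 14 members changed by at least 2-fold, against 11.8% of genes higher and 3.25% lower. The 10 that rose were nuclear: Atp5e (5.59-fold), Atp5md (4.19-fold), Cox7a1 (7.15-fold), Atp5mpl, Uqcrh, Uqcrq, Atp5k, Cox4i1, Atp5o and the pseudogene Cox6c2. The 4 that fell were mitochondrial. mt-Co2 fell the most, to 26 to 132 CPM (median 33.5) in FPC-LIPA, a log2 fold change of -2.65 ± 0.55 (adjusted p = 0.00397). mt-Cytb (-1.08 ± 0.32), mt-Co1 (-1.02 ± 0.31) and mt-Atp8 (-1.86 ± 0.56, at most 0.567 CPM in FPC-LIPA) also fell. The median was 0.63 for nuclear and -1.4 for mitochondrial members. Without FPC-LIPA 36, 39 and 37b, Cox7a1 rose, mt-Co2 and Uqcrb fell, and the nuclear median was -0.19.

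The calls of this comparison were fewer without CON-GFP 1 (7), without CON-GFP 2, 3, 6, 7 or 8 (9 each), without FPC-LIPA 36 or 39 (6 each) and without FPC-LIPA 37b (9), and more without FPC-LIPA 33 (26). With 1 library left out, the call of Cox6c2 was lost in 9 of 12 fits (without any 1 CON-GFP library or FPC-LIPA 36, 39 or 37b), that of mt-Co1 in 5 (CON-GFP 1, 2 or 6 or FPC-LIPA 39 or 37b), that of mt-Atp8 in 4 (CON-GFP 1 or 2 or FPC-LIPA 36 or 39), that of mt-Cytb in 2 (CON-GFP 2 or FPC-LIPA 36) and that of Uqcrq in 2 (FPC-LIPA 36 or 39). Within sample sheet numbers 55 to 68, Cox7a1 rose and mt-Co2 fell, and no other member passed. Markers of other cells moved in this comparison too. Of the markers, 4 of 7 for leukocytes, 4 of 4 for Kupffer cells, 2 of 4 for endothelial cells and 2 of 4 for red blood cells were higher, 1 of 4 for stellate cells was higher and 1 lower, and 3 of 6 for hepatocytes were lower (median log2 fold change -0.69). Summed leukocyte and Kupffer cell markers did not overlap between CON-GFP (39.2 to 93.1 and 97 to 206 CPM) and FPC-LIPA (396 to 789 and 381 to 686 CPM). Their part in the result was not tested.

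Several subunits exist as paralogs with distinct tissues, and in each set 1 form was far above the others, except for Cox7a and the c subunit. Cox4i1 stood at 614 CPM per kilobase in FPC-GFP and Cox4i2, the form of lung and hypoxia, at 0.192. Cox6a1 stood at 598 and the muscle form Cox6a2 at 0.11, and Cox6b1 at 344 and the testis form Cox6b2 at 1.06. Cox8a stood at 429, and Cox8b, of muscle and brown fat, at 0.284. The Cox7a set had 3 expressed forms. In FPC-GFP, Cox7a2 stood at 250, Cox7a2l at 84.9 and Cox7a1 at 7.07 CPM per kilobase. In FPC-LIPA they stood at 647, 148 and 41.1. Cox7a1 thus remained the lowest of the set.

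Atp5g1, Atp5g2 and Atp5g3 encode the same mature c subunit of the rotor ring with different import sequences. Atp5g3 had the highest level, with 575 CPM per kilobase in FPC-GFP and 1040 in FPC-LIPA. Atp5g1 stood at 241 and 223 CPM per kilobase in the same groups, and Atp5g2 at 197 in FPC-LIPA. Only Atp5g3 passed the test, both for LIPA (1.81-fold, log2 0.85 ± 0.28, adjusted p = 0.0447) and for the diet (log2 -0.38 ± 0.13, adjusted p = 0.0397). Each of these calls was lost in 9 of the 12 fits that left out 1 library. Atp5g1 and Atp5g2 had LIPA log2 fold changes of -0.11 and -0.21. Atp5g2 shared 100% and Atp5g1 57.3% of their windows with pseudogenes, so that both levels are uncertain, while Atp5g3 shared none.

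The nuclear coding members with the largest changes were short in both comparisons. These were Atp5e, Atp5md and Cox7a1 with LIPA (159 to 243 bases) and Atp5md, Cox7b and Cox6c on the diet (177 to 243 bases). The mitochondrial members mt-Atp6, mt-Co3 and mt-Co2, whose diet changes were larger but whose levels are uncertain, are longer (681 to 784 bases). Of nuclear members with a coding sequence under 400 bases, 20 of 24 rose with LIPA (median log2 fold change 1.47), as did 8 of 20 longer ones (median 0.44). On the diet, 14 of 23 short members fell (median -0.53), as did 7 of 20 longer ones (median -0.16). Across 44 nuclear coding members, the LIPA log2 fold change had r = -0.6 (Spearman rho = -0.61) with the logarithm of the coding length, and the diet log2 fold change had r = 0.53 (rho = 0.53) across 43. Over all tested coding genes these values were r = -0.36 for LIPA and r = 0.14 for the diet. With GC content of the transcript, the values were r = -0.26 for LIPA and r = 0.34 for the diet, with -0.41 and 0.25 over all coding genes. Genes share libraries and are not independent, so these are descriptions. Cox8a (210 bases) and Cox6a1 (339 bases) were short and did not pass, whereas Cox4i1 (510 bases) and Atp5c1 (897 bases) rose with LIPA. With the trend on gene length removed, Atp5e, Atp5md, Cox7a1, Cox4i1, Uqcrh, Uqcrq, Atp5j2, Atp5o, Cox7b and Cycs rose. Of these, Cox7b (0.7, adjusted p = 0.0539) and Cycs (0.31, adjusted p = 0.227) no longer did with the trends on length and GC content both removed.

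**Figure D5:**
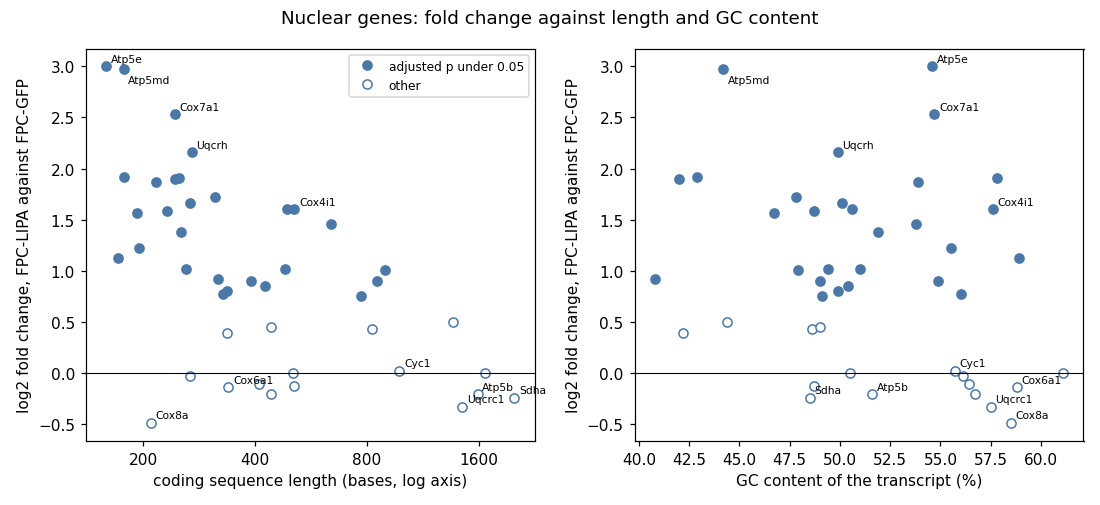
LIPA log2 fold change of the 44 tested nuclear coding members against coding sequence length (bases, log axis) and against transcript GC content (%). Members under 400 bases hold the largest fold changes (Atp5e, Atp5md and Cox7a1), and Cox8a, at 210 bases, lies below 0.

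Sequence shared with pseudogenes was found in members that rose and in members that did not. Of nuclear coding members with no shared window, 18 of 30 rose with LIPA (median 0.95), and of those with shared windows 10 of 14 did (median 0.91). The row Gm14539, which fits Atp5md, held 231 to 4377 counts in a library, while Atp5md held 2042 to 35236. The partner Cox6c2, itself a member, held 14 to 340 counts and rose 3.73-fold with LIPA, while Cox6c held 3744 to 34702 and rose 2.99-fold. Reads of the parent placed on the copy cannot be told apart from transcription of the copy.

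Promoters were compared by short motifs of factors known to act on nuclear respiratory genes. RefSeq promoter sequences of GRCm38.p6, from 250 bases before to 50 after the transcript start, matched 37 of 49 nuclear coding member symbols by symbol. The NRF1 motif (GCGCATGC, either strand) was in 8 of 37, or 21.6%, against 3.05% of 27025 genes. The ETS motif (CCGGAAG, either strand), which factors such as GABPA read, was in 13, or 35.1%, against 9.93% of genes, and the YY1 motif (AANATGGC, either strand) in 5, or 13.5%, against 6.96%. The LIPA median was 0.91 in members with the NRF1 motif and 1.01 in those without it, 1.12 with the ETS motif and 0.83 without it, and 0.77 with the YY1 motif and 0.96 without it. The diet median was -0.29 with and -0.36 without the NRF1 motif, -0.47 with and -0.25 without the ETS motif, and -0.53 with and -0.35 without the YY1 motif. The YY1 motif was held by 5 of the members compared. A match describes the letters of the window and is no measure of binding.

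Other genes of the respiratory system were counted in the same fits. Of 37 nuclear complex I genes, 19 fell on the diet (median -0.38) and 22 rose with LIPA (median 0.83), beside 10.9% and 14.4% of all genes. Ndufb4 had the largest LIPA change, 2.39 ± 0.49 (adjusted p = 0.0127). Of 7 mitochondrial complex I genes, 4 fell on the diet, against 10.9% of all genes. With LIPA 1 of the 7 rose, mt-Nd3 (1.3 ± 0.4, 0.874 to 2.19 CPM by group mean), a share near the 14.4% of all genes. The list of assembly factors, which help build complexes II to V, also held Lrpprc, Taco1 and Atpif1, which act otherwise. Of its 36 tested genes, 9 fell and 1 rose on the diet. Of all genes, 10.9% fell and 12.9% rose. With LIPA, 14 of the 36 rose and 3 fell, beside 14.4% and 6.87% of all genes, so the share that fell was near the background. Pet100, which helps assemble complex IV, rose 3.03 ± 0.54 on the log2 scale (adjusted p = 0.0103), and Uqcc2, which serves complex III, 2.32 ± 0.46 (adjusted p = 0.0124). Of the diet calls among them, Coa6, a copper protein of complex IV assembly, fell by 1.24 ± 0.22 (adjusted p = 0.0017).

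Of 15 tested factors that drive mitochondrial genes, 1 fell on the diet and 1 fell with LIPA, beside 10.9% and 6.87% of all genes, so these shares are near the background. Ppargc1a, the coactivator PGC-1α, fell by 1.17 ± 0.28 on the diet (adjusted p = 0.00869), with mean levels of 9.14 CPM (CON-GFP) and 4.11 CPM (FPC-GFP). Twnk, the mitochondrial DNA helicase, fell by 0.69 ± 0.18 with LIPA (adjusted p = 0.0219). Of 9 carriers and porins, 2 rose on the diet and 1 with LIPA, beside 12.9% and 14.4% of all genes. Ucp2, an uncoupling protein of the inner membrane, rose by 1.88 ± 0.21 on the log2 scale on the diet (adjusted p = 0.000102), from a mean of 17.5 to 65.1 CPM. Slc25a4, an ADP/ATP carrier known from heart and muscle, rose by 0.45 ± 0.15 on the diet (adjusted p = 0.0428) and by 0.78 ± 0.23 with LIPA (adjusted p = 0.0313). Of 12 pseudogene rows named after a member, 5 were tested with LIPA and all 5 rose, beside 14.4% of all genes.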

How the data were processed

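Liver RNA from 18 mice was sequenced after TruSeq library preparation, with a kit that was stranded or unstranded (which is not given per library). Per the labels and the study's methods, the authors trimmed reads, aligned them to GRCm38 with HISAT2 2.1.0 and counted them per gene with Subread's featureCounts, and the deposited table holds raw counts. The strand setting and the treatment of reads that fit several genes are not given in the sources used here, and 5 further columns of the table were not used.

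Genes were filtered with filterByExpr, scaled with TMM and tested with edgeR's quasi-likelihood test (edgeR 4.0.16, R 4.3.3) on the 12 libraries of each comparison, with Benjamini-Hochberg adjustment over all genes tested. A gene passed the test at an adjusted p under 0.05, and calls with at least a 2-fold change were counted separately. Levels are CPM scaled with TMM over all 18 libraries, as lowest, median and highest of 6. The SE given is the absolute log2 fold change over the square root of the quasi-likelihood F statistic. Each library is 1 mouse. DESeq2 1.42.0 was an alternative. Length and GC trends were loess fits (span 0.3) on the principal transcript, given as offsets. The fits were tested on simulated counts in which genes varied independently and no group split into sets. The split of FPC-LIPA was not covered by them. Values are given in full for the member with the highest level per length in each complex and genome, the 3 largest changes in each direction and comparison, Cyc1 and the paralog sets, and single other members were named as examples after their values were seen. The members and lists were chosen with earlier results of these data known.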

Additional observations from a re-analysis of the deposited data

Results flagged for a closer look

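A single liver stood apart from the other 5 of its group for 6 named members in 8 of 87 groups examined, by Dixon's criterion for 6 samples (the gap to the nearest liver over the range of the group), where chance gives about 1 in 20. mt-Atp6 was 832 CPM in CON-GFP 1 and 42.6 to 331 CPM in the other CON-GFP livers. mt-Co2 was 835 CPM in CON-GFP 6 (others 74.1 to 282 CPM) and 132 CPM in FPC-LIPA 34 (others 26.0 to 43.7 CPM). Both genes share 99.5% of their 100-base windows with an annotated pseudogene. Cycs was 90.8 CPM in FPC-GFP 20 (others 112 to 117 CPM), and Cox6a1 was 252 CPM in the same liver (others 329 to 373 CPM). FPC-GFP 20 is 1 of the 4 libraries with a sample sheet number outside 55 to 68 and had the lowest total of its group, 17813507 counts. Cox6a1 was also 161 CPM in FPC-LIPA 37b (others 312 to 379 CPM), the library with the lowest total of all, 16632146 counts. Cyc1 was 379 CPM in FPC-LIPA 39 (others 203 to 258 CPM), and Atp5g2 was 84.5 CPM in CON-GFP 2 (others 108 to 122 CPM).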

How the results depend on the processing

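Both diet medians stayed negative under each alternative run. For FPC-GFP against CON-GFP, the members past the test went from 27 to 17 with library size alone, 3 with all 18 libraries in 1 fit, 13 within sample sheet numbers 55 to 68 and 17 with length and GC trends removed. The last 3 settings left 1, 1 and 0 of the 3 changes of at least 2-fold. The nuclear median (-0.36) was -0.16 with library size alone, -0.17 without the length trend and -0.21 without both trends, and the mitochondrial median (-1.43) was -0.66 within sheet numbers 55 to 68. Library size alone took the median of all genes from 0.01 to 0.21 (diet), from 0.04 to -0.09 (LIPA) and from 0.04 to 0.12 (FPC-LIPA against CON-GFP). For FPC-LIPA against FPC-GFP, the 29 calls and 22 changes of at least 2-fold became 0 and 0 within sheet numbers 55 to 68, 11 and 8 without the length trend, 13 and 9 without both trends, and 3 and 0 without FPC-LIPA 36, 37b and 39. Leaving those out gave medians of 0.15 (nuclear) and 0.13 (mitochondrial, reversed), and removing both trends gave a mitochondrial median of -0.86. For FPC-LIPA against CON-GFP, the 14 calls, all of at least 2-fold, became 24 in 1 fit of all libraries, 2 within sheet numbers 55 to 68 (2 of at least 2-fold) and 3 without FPC-LIPA 36, 37b and 39 (2 of at least 2-fold), and 8 and 5 changes of at least 2-fold remained without the length trend and without both trends. The nuclear median was 0.08 without the length trend and reversed to -0.19 without FPC-LIPA 36, 37b and 39. The split of 10 higher and 4 lower became 15 and 2 with library size alone, 4 and 6 without the length trend and 5 and 6 without both trends. Settings on GC content, length with GC content, and the 3 libraries were chosen after seeing the data. The causes were not tested. No paired analysis was possible because the groups share no mouse numbers.

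With 1 library left out, the members past the test ranged over 19 to 30 (diet), 15 to 32 (LIPA) and 6 to 26 (FPC-LIPA against CON-GFP), changes of at least 2-fold over 1 to 4, 15 to 26 and 4 to 20, the nuclear median over -0.4 to -0.31, 0.77 to 1.08 and 0.45 to 0.76, and the mitochondrial median over -1.59 to -1.11, -0.24 to 0.01 and -1.67 to -1.07. The diet had 1 change of at least 2-fold without CON-GFP 1. For LIPA, leaving out any single FPC-GFP library gave 16 to 18 calls, and leaving out FPC-LIPA 36, 39 or 37b gave 15, 15 and 17. The mitochondrial LIPA median was 0.01 without FPC-LIPA 39. Against CON-GFP, there were 7 calls without CON-GFP 1, 9 without any other single CON-GFP library, 6 without FPC-LIPA 36, 6 without FPC-LIPA 39 (4 of at least 2-fold), 9 without FPC-LIPA 37b and 26 without FPC-LIPA 33.

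Named members that changed sign had not passed the test. Without FPC-LIPA 36, 37b and 39, log2 fold changes against FPC-GFP became 0.2 (mt-Cytb), 0.23 (mt-Co1), -0.17 (Cyc1), 0.06 (Cox6a1), 0.07 (Cox6b2) and 0.03 (Atp5g1), and against CON-GFP -0.45 (Sdhb), -0.08 (Cycs), 0.04 (Cox6a1), -0.1 (Cox6b1), -0.4 (Cox7a2), -0.24 (Cox7a2l), -0.42 (Cox7b), -0.72 (Cox8b) and -0.28 (Atp5g3). Without the length trend they became, for the diet, 0.05 (mt-Atp8), 0.23 (Cox6a1), 0.06 (Atp5g1) and 0.16 (Atp5g2), for LIPA -0.04 (mt-Atp6) and -0.12 (Cyc1), and against CON-GFP -0.02 (Sdhb), -0.08 (Cox7a2l), -0.03 (Cox8b) and -0.1 (Atp5g3). Without the GC trend they became, for the diet, 0.05 (Cycs), 0.29 (mt-Atp8) and -0.19 (Cox8a), for LIPA -0.43 (mt-Atp6), 0.21 (Cox6a1), 0.25 (Cox6b2), 0.2 (Atp5g1) and 0.1 (Atp5g2), and against CON-GFP 0.08 (Cyc1). Without both trends they became, for the diet, 0.0 (Cycs), 0.78 (mt-Atp8), 0.04 (Cox6a1) and 0.01 (Atp5g2), for LIPA -0.97 (mt-Atp6) and -0.27 (mt-Co3), and against CON-GFP 0.01 (Cyc1), -0.05 (Cox7a2l) and -0.05 (Atp5g3). Library size alone gave, for the diet, 0.01 (Cycs), 0.12 (Cyc1), 0.18 (Cox6a1), 0.02 (Atp5g1) and 0.05 (Atp5g2), and for LIPA -0.14 (Cyc1). No filter gave -0.04 (Cyc1, LIPA). Sheet numbers 55 to 68 gave, for the diet, 0.54 (mt-Atp8) and 0.05 (Cox6a1), and for LIPA 0.05 (mt-Co1) and -0.14 (mt-Atp6). With 1 library left out, diet values ranged from -0.09 to 0.06 (Cox6a1), -0.06 to 0.09 (Cox8a) and -1.04 to 0.1 (mt-Atp8), and LIPA values from -0.28 to 0.13 (Cox6b2), -0.14 to 0.07 (Cyc1) and -0.18 to 0.03 (mt-Co1).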
